A study of Mus musculus with 14 samples.

Results

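Expression of 10 genes of inflammatory cytokine signalling was followed through 14 RNA-seq libraries of sorted mouse lung cells. They were Il1a, Il1b, Il1rn, Il1r2, Il6, Il10, Il18, Tnf, Nlrp3 and Casp1, and all 10 were found by symbol among the 43432 genes of the deposited table. They were chosen by name, with no threshold on a measured value, but with earlier results of these data known. Male 129S1 mice, 10 to 12 weeks old, had been given water or bleomycin (3 U/k as the labels write it) through the trachea. Bleomycin is a DNA-damaging drug that injures the lung and leads to fibrosis. Lung cells carrying both the lectin SiglecF and the integrin subunit CD11c, a pair of markers of alveolar macrophages, were separated into those high and those low in MHC class II (MHCII). There were 5 groups. MHCII-low and MHCII-high cells were each taken at 2 weeks and at 4 weeks after bleomycin (3 libraries a group), and the controls were MHCII-low cells from mice given water, with 2 libraries labelled as replicates 1 and 3. Water-treated MHCII-high cells were not analysed here, so each comparison with controls is for MHCII-low cells. The labels do not say whether the replicates of a group were separate animals or pools, so p-values measure the spread between these libraries, which may in part be technical. Sorting used 2 instrument models, and the labels do not assign samples to them.

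IL-1α and IL-1β are agonists of the IL-1 receptor, and both are made as precursors inside the cell. Il1rn encodes the IL-1 receptor antagonist, which occupies the same receptor without signalling, and Il1r2 encodes a decoy receptor that binds IL-1 without passing on a signal. Nlrp3 is the sensor of the NLRP3 inflammasome, a complex that activates caspase-1 (Casp1), the protease that cuts the precursors of IL-1β and IL-18 into their active forms. Tnf and Il6 are broadly acting inflammatory cytokines and Il10 an anti-inflammatory one. Messenger RNA levels carry no information on that cutting or on secretion. In macrophages, transcription of Il1b, Tnf and Il6 is known to be induced through NF-κB, AP-1 and C/EBP factors.

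Values are the authors' normalized counts per library, which scale each library's reads to a common depth. Between 15106415 and 88059538 reads were recovered per library, of which the mitochondrial ribosomal RNAs took 3.12% to 29.0%. On the second principal component (12.27% of the variance) 1 library, 4-week MHCII-high replicate 3, scored 146.4, and the other 13 scored between -73.5 and 44.7. Where a call was lost without this library, the value without it is given. All 14 alveolar macrophage markers listed were read in every library, Siglecf at up to 9551 and Itgax, which encodes CD11c, at up to 44133 normalized counts. The 4 MHCII sort genes summed to 1263 to 12329 in MHCII-low libraries and to 90334 to 219861 in MHCII-high libraries, and both ranges follow the sort.

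Il1b carried the clearest change. It was lower at 4 than at 2 weeks in both MHCII levels, and it was the only one of the 10 genes to pass an adjusted p of 0.05 in any comparison by limma. Il1a and Il1rn were also lower at 4 weeks, with no overlap between the libraries of both times in either MHCII level, but did not pass the test by limma. No overlap and a lower value in both MHCII levels was shared by 2.26% of all genes tested. In MHCII-low cells Tnf read lower after bleomycin than in controls, without passing the test by limma. Nlrp3 was nearly level across all 5 groups. Il6 was close to absent.

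The upstream sequences of the 3 genes whose libraries separated by time in both MHCII levels, and of Il6 as the gene with the fewest reads, are shown so that they can be read beside each other and searched for motifs of the factors named above and for TATA boxes. They are the 250 bases before the start site in the RefSeq table of GRCm38.p6, written 5′ to 3′ on the gene's strand, with motif matches in capitals. Il1a lies at chr2:129309973-129310222 (minus strand), Il1b at chr2:129371140-129371389 (minus strand), Il1rn at chr2:24336610-24336859 (plus strand) and Il6 at chr5:30012864-30013113 (plus strand). Il1rn has further starts, whose windows at chr2:24345041-24345290 and chr2:24345121-24345370 are not shown.
Il1a: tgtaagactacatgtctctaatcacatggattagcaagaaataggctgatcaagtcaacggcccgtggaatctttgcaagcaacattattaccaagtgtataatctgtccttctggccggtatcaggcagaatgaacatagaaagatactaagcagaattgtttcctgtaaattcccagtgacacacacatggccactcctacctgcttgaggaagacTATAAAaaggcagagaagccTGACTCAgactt
Il1b: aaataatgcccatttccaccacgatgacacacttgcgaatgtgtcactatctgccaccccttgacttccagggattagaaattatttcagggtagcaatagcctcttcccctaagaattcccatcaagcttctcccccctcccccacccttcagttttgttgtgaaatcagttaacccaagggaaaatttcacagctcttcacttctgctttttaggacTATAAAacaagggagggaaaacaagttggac
Il1rn: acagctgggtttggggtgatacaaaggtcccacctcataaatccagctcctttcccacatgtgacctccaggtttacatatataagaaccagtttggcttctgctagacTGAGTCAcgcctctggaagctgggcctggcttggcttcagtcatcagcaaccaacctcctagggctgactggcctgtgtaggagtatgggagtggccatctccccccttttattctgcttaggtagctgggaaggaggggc
Il6: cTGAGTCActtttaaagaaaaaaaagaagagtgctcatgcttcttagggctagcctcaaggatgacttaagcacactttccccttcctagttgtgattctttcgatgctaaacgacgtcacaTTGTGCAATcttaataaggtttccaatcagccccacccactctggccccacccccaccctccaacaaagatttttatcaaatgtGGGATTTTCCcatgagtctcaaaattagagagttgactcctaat

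The capitals in Il1a mark a TATA box (TATAAA) at bases -32 to -27 and an AP-1 site (TGANTCA) at -12 to -6, counted back from the start site. Those in Il1b mark a TATA box at -31 to -26, its single match, and those in Il1rn an AP-1 site at -141 to -135. The windows before the other Il1rn starts held no match. In Il6 the capitals mark an AP-1 site at -249 to -243, a C/EBP site (TTNNGCAAT) at -128 to -120 and a κB site at -44 to -35. Among the other genes, Tnf had a TATA box at -29 to -24 and Nlrp3 a κB site at -186 to -177 before one of its starts. The PU.1 core (GAGGAAGT) was found before none of the 9 genes matched, for which the table held 12 start sites. TATA boxes were searched on the gene's strand and the other motifs on both strands, and no capital run belongs to more than 1 motif. Of the 32851 windows of this length in the table, 3.9% held a κB site, 6.75% an AP-1 site, 7.59% a TATA box, 1.93% a C/EBP site and 2.44% the PU.1 core. These are matches of letters in a short window. Il6, with matches to 3 of the 5 motifs, was the gene with the fewest reads.

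Il1a and Il1b are neighbours on chromosome 2, 54597 bases apart and both on the minus strand (GRCm38, Il1a at 129299610 to 129309972 and Il1b at 129364570 to 129371139). Il1rn lies far from them on the same chromosome, at 24336853 to 24351494. Il1r2 and Il10 are on chromosome 1, Il6 on 5, Il18 and Casp1 on 9, Nlrp3 on 11 and Tnf on 17. The amplification kit is not described as keeping the strand, so reads of a gene cannot be told from those of one that overlaps it. Il1bos, on the opposite strand at the start of Il1b, was listed at 0 to 22.1 normalized counts, far under the 386.3 to 2420 of Il1b. Gm14023, opposite to Il1a, had 54.9 to 496.5, so that part of the Il1a reads is uncertain. In MHCII-high cells Gm14023 also separated by time, with 496.5, 311.3 and 174.6 at 2 weeks and 58.3, 64.3 and 85.2 at 4 weeks. In MHCII-low cells it had 156.6, 144.9 and 91.4, then 54.9, 103.9 and 92.8. Its part in the Il1a values was not tested. Gm37347, inside the Il1r2 span on the same strand, had 6.4 to 1002, more than the 2.4 to 92.1 of Il1r2 itself. At 2 weeks it had 338 to 1002 in MHCII-high and 60.4 to 174 in MHCII-low cells. Gm16894, opposite to Il1r2, had 16.5 to 186.8 and 1.6 to 4.5 in the same groups. Their part in the Il1r2 values was not tested.

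How abundant the transcripts were relative to each other was read per kilobase of the deposited total exon length (5535 bases for Il1rn, 714 for Il18). The length of the transcripts present was not measured, so this allows for gene length only roughly. The median over the 14 libraries was 4062 normalized counts per kb for Il1rn and 3885 for Il18. Casp1 followed at 1108, Il1b at 574, Tnf at 477, Nlrp3 at 458 and Il1a at 308. Il1r2 (11.2), Il10 (10.7) and Il6 (0) were far lower. The antagonist thus had more transcript per kb than either agonist it opposes, and the decoy receptor little. Neighbours in this order that changed places between libraries were Il1rn and Il18 (Il1rn higher in 8 of 14 libraries), Il1b and Tnf (Il1b higher in 6), Tnf and Nlrp3 (Tnf higher in 8) and Il1r2 and Il10 (Il1r2 higher in 7). Casp1 was above Il1b in 11 libraries. Il18 stood above Casp1, Nlrp3 above Il1a and Il1a above Il1r2 in all 14.

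**Figure D1:**
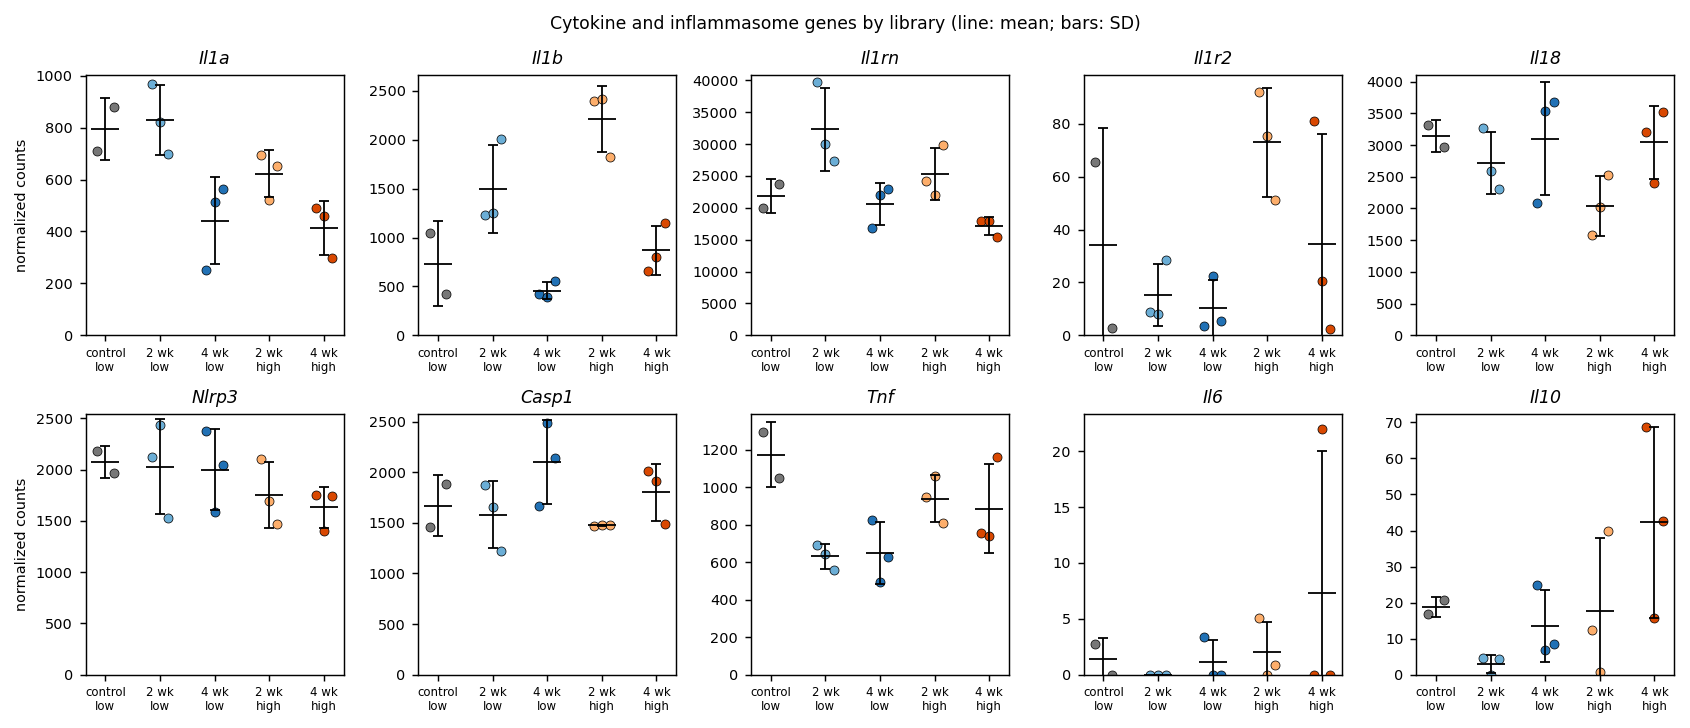
Normalized counts (y axis, linear, starting at 0, its range set for each gene) of the 10 genes in the 14 libraries, grouped along the x axis by time after bleomycin and MHCII level. Points are libraries, lines the mean and bars the SD. Il1b lay between 1228 and 2420 in the 2-week libraries and between 386.3 and 1147 in the 4-week libraries, while Nlrp3 lay between 1400 and 2433 throughout.

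The agonist Il1b varied 6.26-fold between its highest and its lowest library, the most of the genes with at least 100 reads in every library. It had 1044 and 423.6 normalized counts in controls, and MHCII-low libraries had 1228, 1250 and 2011 at 2 weeks and 424.5, 386.3 and 556.5 at 4 weeks. MHCII-high libraries had 2402, 2420 and 1820 at 2 weeks and 661.8, 800.2 and 1147 at 4 weeks. All 6 libraries of 2 weeks were above all 6 of 4 weeks, and both controls lay within the range of the 4-week libraries. The other agonist, Il1a, had 708.6 and 878.1 in controls. In MHCII-low libraries its values were 968.8, 821.7 and 698.7 at 2 weeks and 250.4, 512.8 and 562.9 at 4 weeks. The MHCII-high libraries had 693.6, 520.2 and 651.6 at 2 weeks and 489.1, 458.1 and 295.8 at 4 weeks. Within each MHCII level the 2 times did not overlap, and the controls lay with the 2-week MHCII-low cells. The antagonist Il1rn had 19902 and 23702 in controls. In MHCII-low libraries its values were 39690, 29965 and 27278 at 2 weeks and 16834, 21992 and 22969 at 4 weeks. MHCII-high libraries had 24166, 21974 and 29848 at 2 weeks and 17894, 17988 and 15450 at 4 weeks. It too separated by time within each MHCII level, and the 2-week MHCII-low libraries lay above the controls.

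Within MHCII-low cells, 4 against 2 weeks compares the later with the earlier time after bleomycin. Il1b fell by 1.69 ± 0.30 on the log2 scale (standard error, limma adjusted p = 0.00386), to 0.31 of its 2-week level on the log2(value + 1) scale used for all fold changes here. It was the 1 of 9 tested members called, where 0.857% of the 17390 genes tested were called and 0.748% were called lower. Il1rn had a log2 difference of -0.64 ± 0.17 (limma adjusted p = 0.105, and 0.0217 by DESeq2) and Il1a one of -0.98 ± 0.30 (limma adjusted p = 0.21). For 4 members the libraries of both times did not overlap, Il1a, Il1b and Il1rn being lower and Il10 higher at 4 weeks, where 14% of all genes did not overlap. Il1b passed the threshold under each alternative setting and without each library in turn, with adjusted p-values up to 0.0454 in limma, edgeR or DESeq2. The members' median log2 difference was -0.01, against 0.03 over all genes tested. In these bulk samples fewer cells of a type and less RNA per cell cannot be told apart.

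Within MHCII-high cells Il1b fell by 1.37 ± 0.30 on the log2 scale between 2 and 4 weeks (limma adjusted p = 0.0276), to 0.386 of its 2-week level. It was again the 1 member called, where 1.07% of all genes were called and 0.759% called lower. Without 4-week replicate 3 the log2 difference was -1.59 (limma adjusted p = 0.0133). The call was lost without 2-week replicate 1, 2 or 3 (adjusted p = 0.108, 0.0984 and 0.0613), without 4-week replicate 1 or 2 (0.0847 and 0.0521), and with no filter on low values (0.0853). Il1rn had a log2 difference of -0.56 ± 0.17 (limma adjusted p = 0.126) and Il1a one of -0.61 ± 0.30 (0.379). There were 4 members that did not overlap between the times, Il1a, Il1b and Il1rn lower and Casp1 higher, against 15% of all genes. The members' median log2 difference was -0.11, against -0.07 over all genes. No overlap and a lower value in both MHCII levels was shared by 2.26% of all genes, and a lower call in both by 0.282%. Whether the Il1b change differed between MHCII levels was tested as an interaction, which was 0.32 ± 0.42 (limma adjusted p = 0.979).

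Summed lists of monocyte and neutrophil markers moved with Il1b over time. The summed level of 15 monocyte and monocyte-derived macrophage markers was 27839 to 32376 normalized counts in 2-week MHCII-low cells and 16582 to 20518 at 4 weeks, against 16031 to 18555 in controls. In MHCII-high cells it was 65011 to 76774 at 2 weeks and 36626 to 42484 at 4 weeks. Csf1r alone had 12492 to 29969 over the 14 libraries, most of the sum in controls and in 4-week MHCII-low cells. Ly6c2 and Plac8, also on this list, did not exceed 43.4 and 17.5. A list of 10 neutrophil markers summed to 14204 to 15655 and 7344 to 8326 in MHCII-low cells at 2 and 4 weeks, and to 10590 to 14595 and 6986 to 10092 in MHCII-high cells, against 5162 to 9242 in controls. Of that list Mmp8 and Cxcr2 were called lower at 4 weeks in MHCII-low cells and Cxcr2 in MHCII-high cells. That is 2 and 1 of 8 tested, where 0.748% and 0.759% of all genes were called lower. Csf3r made up 3482 to 6456 of the neutrophil sum. The neutrophil-defining Ly6g was at 0 in 11 libraries and Camp in 12, and S100a8 did not exceed 396.5. Of 10 markers of epithelium, fibroblasts and endothelium, 1 was called lower and none higher at 4 weeks in MHCII-low cells (median log2 difference -0.34). Their sum, 4562 to 12626 at 2 weeks and 21191 to 28661 at 4 weeks, was mostly Scgb1a1, a club cell gene, at 19013 to 24712 at 4 weeks. The part of any of these in the Il1b difference was not tested. Eosinophils also carry SiglecF, and their granule genes Prg2 and Prg3 were at 0 in all 14 libraries, Epx in 10. Of the other eosinophil markers listed, Ccr3 was read in all 14 libraries (17 to 197.1), Alox15 reached 174.4 and Il5ra 74.9.

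**Figure D2:**
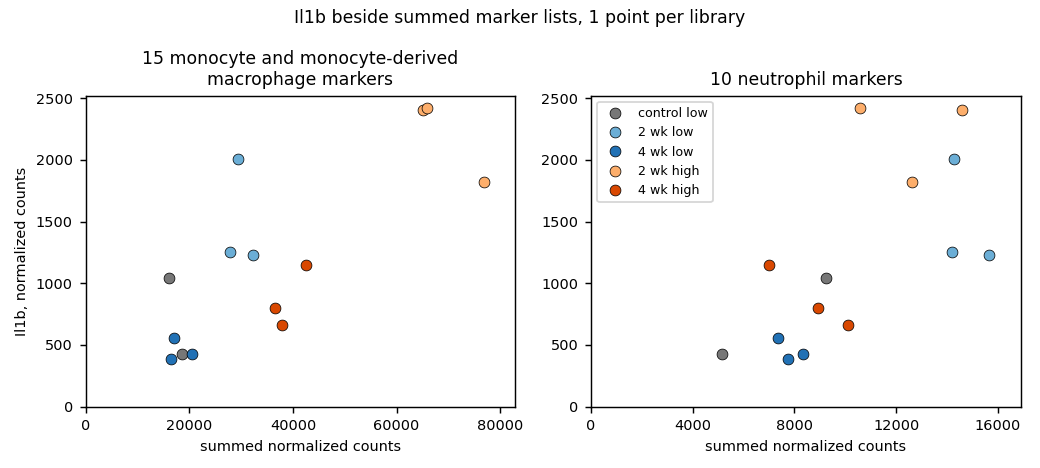
Il1b (y axis, normalized counts) against the summed normalized counts (x axis) of 15 monocyte and monocyte-derived macrophage markers, left, and 10 neutrophil markers, right, with 1 point per library coloured by group. The 2-week MHCII-high libraries lie farthest right for the monocyte list, at 65011 to 76774, and 4-week MHCII-low libraries lie with the controls.

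MHCII-high and MHCII-low cells of the same time were compared next. Averaged over both times Il1b was 1.68-fold higher in MHCII-high cells, with a log2 difference of 0.75 ± 0.21 (limma adjusted p = 0.0335). It was the 1 of 9 tested members called, where 7.21% of all genes were called and 5% called higher. At 4 weeks alone the difference was 0.91 ± 0.30 with no overlap (limma adjusted p = 0.128), and at 2 weeks 0.59 ± 0.30 with overlap (0.359). No member was called at either single time, by limma, where 2.87% of genes were called at 2 weeks and 2.5% at 4 weeks. At an unadjusted p under 0.05 there was 1 member at each time, Tnf at 2 weeks and Il1b at 4 weeks. The averaged Il1b call was lost with the mitochondrial rRNA share as a covariate (adjusted p = 0.167), with no filter (0.0881), with TMM factors (0.0531 in limma, 0.0563 in edgeR) and without any one of 7 libraries. Those were 2-week MHCII-high replicates 1 and 2 (adjusted p = 0.0797 and 0.0877), 2-week MHCII-low replicates 1 and 2 (0.0951 and 0.0798), 4-week MHCII-high replicate 3 (0.0734) and 4-week MHCII-low replicates 1 and 2 (0.0651 and 0.0763). Of the 14 tested monocyte and monocyte-derived macrophage markers, 10 were called higher in MHCII-high cells averaged over both times, and 8 of 14 alveolar macrophage markers were called lower. Their part in the Il1b difference was not tested.

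Tnf, the gene of tumour necrosis factor, had 1297 and 1050 normalized counts in controls. MHCII-low cells had 691.4, 643.3 and 560.5 at 2 weeks and 825.0, 495.1 and 624.8 at 4 weeks. MHCII-high cells had 948.8, 1060 and 807.1 at 2 weeks and 757.6, 740.5 and 1160 at 4 weeks. The controls were above all MHCII-low libraries after bleomycin, and 2 MHCII-high libraries reached the range of the controls. Its log2 difference between MHCII-high and MHCII-low cells, averaged over both times, was 0.51 ± 0.17 (limma adjusted p = 0.0832). That value passed the threshold with the GC trend removed (0.0309), by DESeq2 (0.0383) and without 4-week MHCII-low replicate 1 (0.0466). Without 4-week MHCII-high replicate 3, its highest library of that group, it was 0.40 (0.167). Il1rn ran the other way, with an averaged log2 difference of -0.30 ± 0.12 (limma adjusted p = 0.153). At 2 weeks 3 members did not overlap between MHCII levels (Tnf and Il1r2 higher, Il1a lower in MHCII-high cells), against 21.1% of all genes, and 1 at 4 weeks (Il1b), against 16.4%. The members' median averaged difference was -0.14, against 0.02 over all genes.

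Against the water-treated controls no member was called in MHCII-low cells, by limma. At 2 weeks 1.91% of all genes were called and at 4 weeks 0.046%. At an unadjusted p under 0.05 there were 3 members at 2 weeks (Il1b, Tnf and Il1rn) and 2 at 4 weeks (Tnf and Il1a). Of all genes tested, 12.7% and 6.12% passed it. Tnf had log2 differences of -0.89 ± 0.28 at 2 weeks (limma adjusted p = 0.121, and 0.0395 by DESeq2) and -0.88 ± 0.28 at 4 weeks (0.548). Il1b had 1.13 ± 0.34 at 2 weeks (limma adjusted p = 0.1). It turned on which control was kept: the log2 difference was 1.78 without control replicate 1 (adjusted p = 0.0186) and 0.48 without control replicate 3 (0.967). With the GC trend removed the adjusted p was 0.0407. Il1rn had 0.55 ± 0.19 at 2 weeks (limma adjusted p = 0.193, and 0.042 with the GC trend removed). Il1a, level with controls at 2 weeks (0.06 ± 0.34), had -0.92 ± 0.34 at 4 weeks (limma adjusted p = 0.682). There were 4 members that did not overlap with controls at 2 weeks (Il1b and Il1rn higher, Tnf and Il10 lower) and 2 at 4 weeks (Tnf and Il1a lower), where 35.3% and 27.4% of all genes did not overlap. The comparisons at both times share the same 2 controls.

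**Figure D3:**
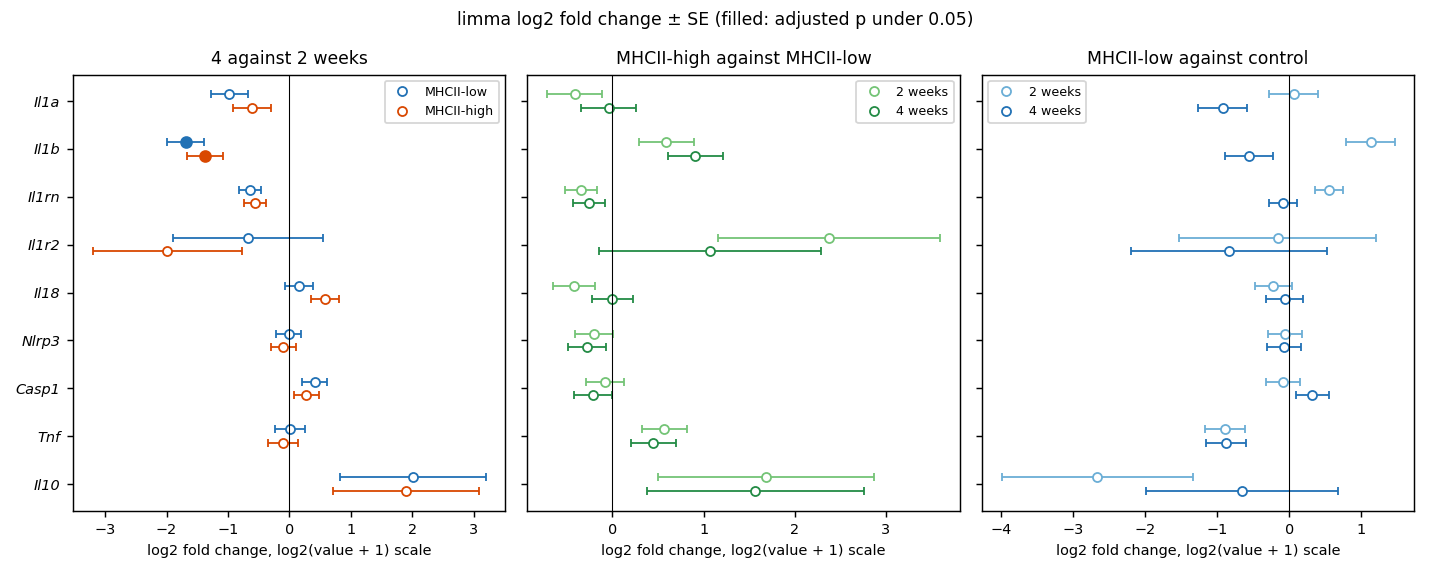
Log2 fold change on the log2(value + 1) scale (x axis) with its standard error for the 9 tested genes (y axis) in 6 comparisons, 2 per panel; filled points passed an adjusted p of 0.05 in limma. The filled points are Il1b at 4 against 2 weeks in both MHCII levels, at -1.69 and -1.37.

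The balance of antagonist to agonist was described as the ratio of Il1rn to Il1b per kb in each library, with no test. It was 6.57 and 19.3 in controls. In MHCII-low cells the mean was 8.02 ± 3.24 (SD, n = 3) at 2 weeks and 15.8 ± 3.29 at 4 weeks. In MHCII-high cells it was 4.08 ± 1.37 at 2 weeks and 7.23 ± 2.38 at 4 weeks. Il1rn transcript outnumbered that of Il1b in all 14 libraries, and the lowest ratio, 3.13, was in a 2-week MHCII-high library. The MHCII-low libraries of the 2 times did not overlap in this ratio, while the MHCII-high libraries did (3.13 to 5.65 and 4.64 to 9.32). That overlap came from 4-week MHCII-high replicate 3 alone (4.64), the other 4-week libraries having 7.74 and 9.32. The ratio of Il18 to Il1b also had its lowest group mean in 2-week MHCII-high cells (2.56) and its highest in 4-week MHCII-low cells (18.4).

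**Figure D4:**
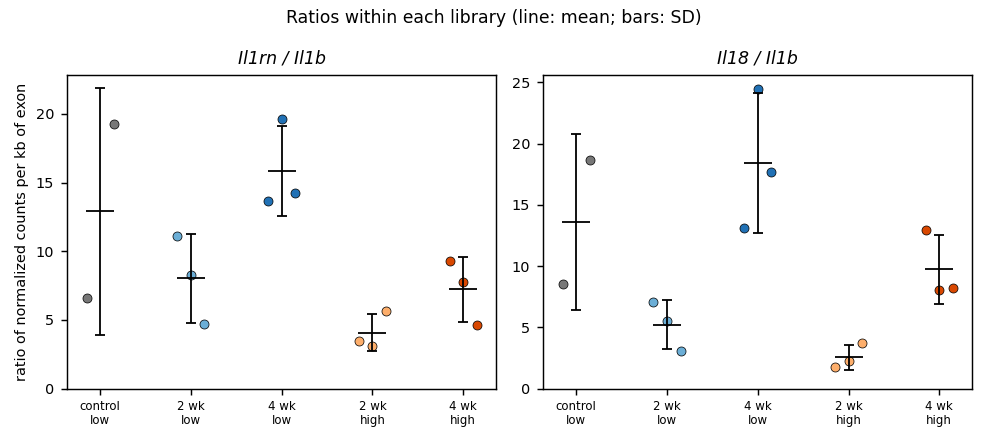
Ratio of normalized counts per kb of exon (y axis, from 0) of Il1rn to Il1b, left, and of Il18 to Il1b, right, in each library by group. Points are libraries, lines the mean and bars the SD; the 2-week MHCII-high libraries have the lowest mean in both panels, 4.08 and 2.56.

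The inflammasome sensor and protease varied little. Nlrp3 had 2181 and 1963 normalized counts in controls and between 1400 and 2433 in the 12 libraries after bleomycin, a 1.74-fold range over all 14 and the narrowest of the 10 genes. Its groups overlapped in each comparison, and its log2 differences ran from -0.28 to -0.01 in the 7 comparisons of groups. Casp1 had 1455 and 1885 in controls, 1873, 1653 and 1223 in 2-week MHCII-low and 1664, 2491 and 2143 in 4-week MHCII-low cells. MHCII-high libraries had 1472, 1481 and 1476 at 2 weeks and 2011, 1916 and 1485 at 4 weeks. Its 4-week MHCII-high libraries were all above those of 2 weeks, 1 of them by a few counts, for a log2 difference of 0.28 ± 0.21 (limma adjusted p = 0.603). The GC content of Casp1 (35.5%) was the lowest of the 10, and with the GC trend removed its averaged difference between MHCII levels became -0.48 (limma adjusted p = 0.025) in place of -0.14 (0.626).

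Il18, whose precursor many resting macrophages hold, had 3321 and 2962 in controls. MHCII-low cells had 3262, 2586 and 2307 at 2 weeks and 2080, 3541 and 3687 at 4 weeks, and MHCII-high cells 1581, 2018 and 2528 at 2 weeks and 3211, 2399 and 3519 at 4 weeks. The groups overlapped in each comparison. Its change over time in MHCII-high cells was 0.58 ± 0.23 (limma adjusted p = 0.239), opposite in sign to that of Il1b.

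The remaining 3 genes were near the limit of counting. Il1r2 had 65.4 and 2.6 in controls, 3.4 to 28.6 in the MHCII-low libraries after bleomycin, 92.1, 75.4 and 51.3 in 2-week MHCII-high and 81.2, 20.4 and 2.4 in 4-week MHCII-high cells. The 2-week MHCII-high libraries were above the MHCII-low ones of that time, with a log2 difference of 2.38 ± 1.22 (limma adjusted p = 0.365). It rested on 2 to 179 reads per library. Il10 had 16.8 and 20.7 in controls, 4.5, 0 and 4.4 in 2-week MHCII-low and 24.9, 6.9 and 8.5 in 4-week MHCII-low cells. In MHCII-high cells it had 12.3, 0.8 and 40.0 at 2 weeks and 68.7, 15.7 and 42.6 at 4 weeks, on at most 46 reads. The 0 allows up to 4.78 normalized counts (3 reads), and its differences, such as 1.90 ± 1.19 over time in MHCII-high cells (limma adjusted p = 0.504), did not pass. Il6 had reads in 5 of 14 libraries and at most 14 of them, which is 22.0 normalized counts in 4-week MHCII-high replicate 2. The 9 libraries at 0 allow up to 1.65 to 6.71 normalized counts each. Il6 did not reach 10 normalized counts in 2 libraries and was not tested, so differences in it were not detectable at this depth.

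Other genes of the same pathways were counted from 5 lists, leaving out the 10. Of 16 tested IL-1 family ligands, receptors and binding proteins, 3 were called for the averaged difference between MHCII levels, all higher in MHCII-high cells, where 5% of all genes were called higher. The list's median log2 difference was 0.13, against 0.02 over all genes. Il1rl1, the receptor of IL-33, had 153.8 to 279.4 normalized counts in MHCII-high cells at 2 weeks, 301.8 to 384.4 at 4 weeks, and 0 to 47.8 in MHCII-low cells after bleomycin. Its log2 difference was 5.04 ± 0.68 (limma adjusted p = 4.46e-05). Il1r1, the signalling receptor of IL-1, was higher by 1.18 ± 0.18 (limma adjusted p = 0.000154), and Il18rap, a subunit of the IL-18 receptor, by 1.55 ± 0.24 (0.000238). These 3 kept their averaged call under each alternative and without each library. The other 13 genes of the list, among them the receptor genes Il18r1 and Il1rap, were not called. Markers of other cells were also higher in MHCII-high cells. Of the lists of lymphocyte and dendritic cell markers, 5 of 8 and 6 of 10 tested genes were called higher in MHCII-high cells averaged over both times. The summed lymphocyte markers ran from 770.4 to 3827 normalized counts in MHCII-high and from 65.0 to 2435 in MHCII-low libraries after bleomycin, and the dendritic cell markers from 2283 to 3595 and from 1074 to 2193. Their part in these receptor differences was not tested.

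Of 18 tested NF-κB subunits and feedback regulators, 3 were called higher in MHCII-high cells, averaged over both times, and none lower, with a list median of 0.23, where 5% of all genes were called higher and their median was 0.02. Nfkbiz, a nuclear NF-κB cofactor that is itself induced by IL-1, was 2.83-fold higher (limma adjusted p = 0.000104). Tnip3, an inhibitor of NF-κB signalling, was higher by 3.72 ± 0.59 (limma adjusted p = 0.000279), and Rel, a subunit, by 0.48 ± 0.13 (0.0245). Of 14 tested TNF receptors and signalling genes, 2 were called higher and 2 lower, with a list median of 0.06, beside 7.21% of all genes called in either direction. Traf1, a signalling adaptor, was higher by 4.37 ± 0.71 (limma adjusted p = 0.000315) and Cflar, an inhibitor of death-receptor signalling, by 0.43 ± 0.11 (0.0185). Tnfaip2, a gene induced by TNF, had a difference of -0.42 ± 0.10 (limma adjusted p = 0.0149). The fourth, Tnfrsf1a, the main TNF receptor, lies outside the naming rule and was chosen after its values were seen (-0.42 ± 0.13, adjusted p = 0.0487). Rel, Cflar and Tnfrsf1a lost their calls on leaving out single libraries, and Tnfaip2, Rel and Tnfrsf1a with the GC trend removed. All 4 lost it with the mitochondrial rRNA share as a covariate. At 4 weeks alone 3 genes of the IL-1 family list, 2 of the NF-κB list, 2 of the TNF list and 1 of the IL-6 list were called higher, at 2 weeks 1, 0, 1 and 0, and none lower at either time, beside 2.5% and 2.87% of all genes called. Without 4-week MHCII-high replicate 3 the 4-week calls of Traf1 (adjusted p = 0.0736), Cflar (0.107) and Socs3 (0.128) were lost. Other single libraries ended them too. Counting that replicate, the calls of Traf1, Cflar and Socs3 were lost without 3, 6 and 4 of 6 libraries. They were also lost under 2, 5 and 4 of 10 settings. The 2-week calls of Il1rl1 and Traf1 were lost without 5 and 3 of 6 libraries left out singly, and under 4 and 2 of 10 settings. Averaged over both times, 6 of 10 dendritic cell markers and 6 of 13 immediate early and dissociation-response genes were also called higher in MHCII-high cells. The part of such cells or responses in these differences was not tested.

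Between 2 and 4 weeks 0.857% of all genes were called in MHCII-low cells and 1.07% in MHCII-high cells. Of 17 tested genes of the IL-6, IL-10 and IL-12 families, Socs3 was the 1 called between times, in MHCII-low cells alone. It encodes a feedback inhibitor of cytokine signalling and had 148.0 and 299.6 normalized counts in controls, 776.4, 1207 and 1599 in 2-week MHCII-low cells and 263.3, 264.7 and 376.4 in 4-week MHCII-low cells. It rose by 2.44 ± 0.35 against controls at 2 weeks (limma adjusted p = 0.000227) and fell by 1.94 ± 0.31 from 2 to 4 weeks in MHCII-low cells (0.0014). Both calls held under each alternative and without each library. MHCII-high cells had 1274 to 1564 at 2 weeks and 559.9 to 938.4 at 4 weeks. Their log2 difference over time was -1.04 ± 0.31 (limma adjusted p = 0.106), and the interaction between time and MHCII level was 0.91 ± 0.44 (0.876). Lif, a cytokine of the IL-6 family, had 337.9, 461.8 and 398.1 in 2-week MHCII-low libraries against 25.3 and 0 in controls (limma adjusted p = 0.00238, and 0.146 without control replicate 3, the library at 0). Socs3 and Lif were the 2 of 17 called against controls at 2 weeks, where 1.91% of all genes were called. Averaged over both times, 5% of all genes were called higher in MHCII-high cells. Socs3 (0.77 ± 0.22, limma adjusted p = 0.0346) and Jak2, a kinase of cytokine receptors (0.44 ± 0.13, 0.0394), were the 2 of 17 called higher there, but both calls were easily lost. They went with the mitochondrial rRNA share as a covariate (0.296 for Socs3 and 0.475 for Jak2), with no filter, with TMM factors and with edgeR, and without 8 and 7 of the 12 libraries left out singly. Among these was 4-week MHCII-high replicate 3 (0.0744 for Socs3 and 0.0617 for Jak2). Of 24 tested inflammasome genes, none was called between MHCII levels by limma, at shares of all genes (2.87%, 2.5% and 7.21%) that would make few calls in a list of this size. P2rx4, an ATP-gated channel, rose by 1.09 ± 0.22 in 2-week MHCII-low cells against controls (limma adjusted p = 0.00807) and fell by 0.87 ± 0.20 from 2 to 4 weeks in MHCII-high cells (0.0339). The first adjusted p was 0.288 without control replicate 3 and 0.0673 with the mitochondrial rRNA share as a covariate. The second call, the 1 of 24 over time in MHCII-high cells, was lost without 4 of 6 libraries left out singly (up to 0.114) and with no filter (0.078). Ninj1, which mediates membrane rupture in lytic cell death, had 120.8, 55.7 and 90.3 in 2-week MHCII-low cells against 18.7 and 2.6 in controls (limma adjusted p = 0.0229, and 0.58 without control replicate 3). That call was also lost without 2-week MHCII-low replicate 1 (0.113) or 3 (0.0789), with edgeR (0.0721) and with the mitochondrial rRNA share as a covariate (0.125). P2rx4 and Ninj1 were the 2 of 24 inflammasome genes called against controls at 2 weeks, beside 1.91% of all genes. Tnfrsf1b, a TNF receptor, rose by 0.94 ± 0.18 in 2-week MHCII-low cells against controls (limma adjusted p = 0.00426, and 0.0761 and 0.0528 without control replicate 1 and 3). It was the 1 of 14 tested TNF receptors and signalling genes called in that comparison. Adam17, the protease that releases TNF from the membrane, fell by 0.66 ± 0.16 from 2 to 4 weeks in MHCII-low cells (limma adjusted p = 0.0437, and up to 0.237 on leaving out single libraries). It was the 1 of these 14 called over time in MHCII-low cells.

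**Figure D5:**
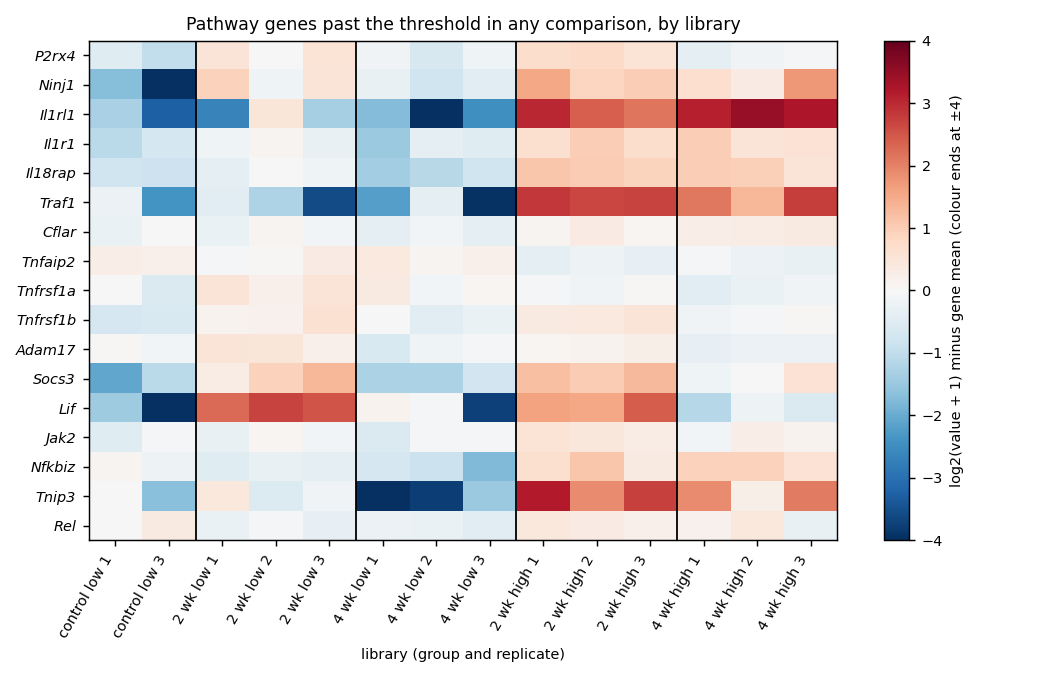
The 17 pathway genes (rows) past an adjusted p of 0.05 in any comparison, in 14 libraries (columns, by group and replicate); colour is log2(value + 1) minus the gene's mean over the libraries. Il1rl1, Traf1 and Tnip3 are high in the MHCII-high libraries, and Socs3 and Lif are high at 2 weeks in both MHCII levels.

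The genes most like each member in pattern were named by the Pearson correlation of log2(value + 1) over the 14 libraries, among 9972 genes with a mean of at least 100, as a description. All such values share library depth and scaling. For Il1b they were Myo10 (r = 0.92), Utp14b (0.91) and Lyst (0.90), and for Il1rn Hspa5, an endoplasmic reticulum chaperone (0.94), Golm1 (0.93) and Ptgfrn (0.93). For Il1a the nearest was AI987944 (0.93), for Il18 Surf6 (0.93), for Casp1 6720489N17Rik (0.90), for Il1r2 Wwc2 (0.89), for Il10 Exosc1 (0.87) and for Nlrp3 Cckar (0.74). For Tnf they were the inducible heat shock genes Hspa1b (0.85) and Hspa1a (0.82), near-identical neighbours between which reads may be split, and Gm26982 (0.80). Hspa1a had 1480 and 1839 normalized counts in controls, 76.5 to 368.9 in MHCII-low cells after bleomycin, 201.6 to 537.7 in 2-week MHCII-high cells and 254.2 to 1181 in 4-week MHCII-high cells. The library with 1181 was replicate 3, which was also the highest 4-week library for Tnf. Hspa1a and Hspa1b were called lower than controls in MHCII-low cells at both times. They were the 2 of 13 immediate early and dissociation-response genes called, beside 1.91% of all genes at 2 weeks and 0.046% at 4 weeks. The list's median log2 differences were -0.12 and -0.22, against -0.09 and -0.06 over all genes. Of the same 13 immediate early and dissociation-response genes, 6 were called higher in MHCII-high cells averaged over both times, Egr1, Fosb, Jun and Btg2 among them. Of all genes 5% were called higher there. The part of this response in the Tnf values was not tested.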

How the data were processed

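RNA-seq of 14 libraries was used. Per the submitters' processing notes, STAR, DESeq2 and the genome build mm10 were used; what each did, and in which version, is not stated there. Beads were used to isolate mRNA, per the labels' protocols, with cDNA amplified with a whole-transcriptome kit and libraries made with a transposase, and no molecular identifiers are described, so copies made by amplification count as reads. The deposited values are normalized counts, a signal the authors made by scaling gene counts, rounded to 1 decimal, per the file headers and from the values. Dividing a column by the worth of 1 read recovers reads, and 99.94% to 100% of the values tested per library came out whole within the rounding (0.05). The authors' deposited column of mean values equalled the mean of the 14 columns in 25.8% of genes above 0 and was not used. The deposited GC percent, exon length and positions were used as given by the authors. All 10 members have the same span in GENCODE M21.

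Since the values are normalized, the main test was limma (3.58.1, R 4.3.3) on log2(value + 1) with a trended prior variance, 1 coefficient per group, over the 17390 genes with at least 10 in at least 2 libraries. P-values were adjusted by Benjamini-Hochberg within each of 8 comparisons over all genes, at a threshold of 0.05. Fold changes on this scale understate the change of low genes. ± is the standard error after a log2 difference and the SD after a mean. edgeR (4.0.16) and DESeq2 (1.42.0) were run on recovered reads as alternatives, with other pseudocounts, filters, scalings, covariates and left-out libraries. No replicate pair agreed within sampling noise, and the scripts were tested on simulated data. Limits given for a value of 0 use 3 reads and cover counting error only. The members and lists were chosen with earlier results of these data known. Named were all members, up to 3 genes per pathway list and comparison with the smallest p among those past the threshold, and the 3 genes most like each member in pattern. Of 193 list genes beyond the members, 188 were in the table and 174 tested. The 6 eosinophil markers summed to 21.4 to 403.9 over all libraries, the 13 immediate early and dissociation-response genes to 36311 to 63760, and the markers of epithelium, fibroblasts and endothelium to 5998 to 17308 in MHCII-high cells.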

Additional observations from a re-analysis of the deposited data

How the results depend on the processing

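No direction of a called member changed under any alternative. For the averaged difference between MHCII levels, 1 member was called in the main fit, 0 with no filter, with TMM factors before limma, with edgeR and with the mitochondrial rRNA share as a covariate, 2 with DESeq2, 3 with the GC trend removed, and 0 to 1 on leaving out single libraries. In 2-week MHCII-low cells against controls the count of 0 became 2 with the GC trend removed, 1 with DESeq2 and 0 to 1 on leaving out single libraries. Within MHCII-low cells over time DESeq2 called 2 in place of 1. Within MHCII-high cells over time the count of 1 became 0 with no filter and 0 to 1 on leaving out single libraries. The cause of these changes was not tested. Of 69 member differences under the threshold, 23 changed sign and 6 passed it under some alternative. Of 30 calls among pathway genes, 16 were lost by leaving out 1 library and 15 by a setting.

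The replicate numbers of MHCII-high and MHCII-low libraries are shared, but no label says that they mark 1 animal. The correlation of same-numbered deviations was 0.11, 0.068 and 0.025 at 2 weeks and 0.0091, 0.034 and 0.015 at 4 weeks, and not every library correlated best with its own number. With the number as a replicate block, the member calls were 0 at 2 weeks, 0 at 4 weeks and 1 averaged, as without it.

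Over all genes, DESeq2 called 1055, 898 and 2122 between MHCII levels (2 weeks, 4 weeks and averaged) in place of 499, 434 and 1254. Against controls it called 660 and 77 in place of 332 and 8, and over time 322 and 638 in place of 149 and 186. Leaving out single libraries gave 203 to 455 at 2 weeks, 266 to 480 at 4 weeks and 853 to 1399 averaged, 127 to 308 and 1 to 8 against controls at 2 and 4 weeks, and 95 to 138 and 64 to 299 over time in MHCII-low and MHCII-high cells. The lowest counts came without 2-week MHCII-high replicate 2 (203) or 3 (64), 4-week MHCII-low replicate 3 (266) or 2 (95), and control replicate 3 (127 and 1). The mitochondrial rRNA covariate gave 207 at 2 weeks, 500 averaged, and 213 and 2 against controls. No filter gave 316 and 282 between MHCII levels, 65 at 4 weeks against controls and 103 over time in MHCII-high cells, and at 4 weeks against controls edgeR gave 5 and the replicate block 16. The main 870 higher and 384 lower averaged calls became 767 and 634 with TMM factors, and the 54 and 132 over time in MHCII-high cells became 124 and 133 with the GC trend removed. At 2 weeks the 398 and 101 became 378 and 209 with the GC trend removed and 311 and 154 with edgeR. GC removal moved the median of all genes by 0.136 in 2-week MHCII-low cells against controls. For the interaction limma called 0 genes (987 at an unadjusted p under 0.05), edgeR 0 and DESeq2 56. Depth limits Il6, Il10 and Il1r2 most.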
